A study of Mus musculus with 10 samples.

Results

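The cortex of embryos homozygous for a Gatad2b stop allele (KO replicates 1 to 3) was compared with that of heterozygous embryos (Het replicates 1 to 3) by single-cell RNA sequencing. These 6 of the 10 embryos of the series were chosen because their libraries carry the same file name prefix, which no wild-type (WT) library carries, so that genotype was not mixed with the set of libraries. Het replicate 4 carries the prefix of the 3 WT libraries and was left out. All 6 embryos were collected at E16.5 (embryonic day), on a C57BL/6N-A tm1Brd background, and both groups carry the stop allele, Het on 1 and KO on both copies of the gene. The allele is a trapping cassette within an intron of Gatad2b, in front of most of its coding exons. These exons are still present, so reads from the 3′ end of the gene need not disappear. For the protein, the study reported no detectable Gatad2b in homozygous embryonic cerebellum by western blot, and none in homozygous E16.5 cortex by immunostaining. The labels name neither the litter nor the sex of an embryo. Each embryo gave 1 library from papain-dissociated cortex, so an embryo is the replicate throughout.

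Gatad2b encodes p66beta, a subunit of the NuRD complex. NuRD joins a nucleosome remodelling ATPase of the CHD family with histone deacetylases, a histone-binding module and a methyl-DNA-binding protein of the MBD family. It is known for lowering the activity of enhancers and promoters at which it is recruited. The study also refers to recent data that propose activating functions. In the developing cortex it is known for roles in the exit of progenitors from the cell cycle, in the choice between deep-layer and upper-layer neuron programmes, and in synapse formation.

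A cell entered the sums if it held 1000 or more unique molecular identifiers (UMIs), of which no more than 10.0% were mitochondrial. This left 34793 of 41052 barcodes. Summed UMIs ranged from 93254117 to 97274915 in Het and from 82872641 to 109484897 in KO embryos, and the median cell held 13218 to 14860 UMIs in Het embryos and 14324.5 to 17077.5 in KO embryos. Any pair of embryos shared 4 to 17 barcodes. Het replicate 2 was the only library rich in Y-linked transcripts, at 12554 UMIs against 10 to 18 in the other 5. A cluster of 404 cells led by vessel-associated genes (Ctla2a, Cldn5, Pf4) took 5.90% of the cells of Het replicate 3 and 0.205% to 0.356% of every other embryo. Markers of excitatory cortical neurons were present in all embryos, where the 8 markers summed to 1963 to 2105 CPM (UMIs brought to a common library size) in Het and 2224 to 2331 in KO. Haemoglobin and other erythroid markers summed to 16516 to 22379 CPM in Het embryos and to 11689 to 15381 in KO embryos, so the amount of red blood cell RNA differed between the groups without overlap. Choroid plexus markers stayed between 2.08 and 5.48 CPM in the 6 embryos.

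Gatad2b (chr3:90293178-90363407, plus strand, GRCm38) was lower in every KO embryo. Summed over all kept cells, Gatad2b stood at 93.1, 88.8 and 89.0 CPM in Het replicates 1, 2 and 3 and at 50.4, 52.2 and 56.7 in KO replicates 1, 2 and 3, an order of replicates that holds for all values that follow. The groups were far apart relative to their spread (90.3 ± 2.43 against 53.1 ± 3.25, mean ± SD, n = 3 each) with a log2 fold change of -0.77 (SE 0.048, adjusted p = 9.06e-05). Genes were called changed at a Benjamini-Hochberg adjusted p under 0.05 in edgeR's quasi-likelihood test and an absolute log2 fold change over 0.25. By this rule 1054 of 17165 genes tested were called (6.14%), 501 higher (2.92%) and 553 lower (3.22%) in KO. Of all genes tested, 4036 had an unadjusted p under 0.05. The KO and Het embryos did not overlap for 4866 genes (28.3%), among them 1052 of the called genes. Lack of overlap in a called gene is therefore no separate result. The rule for naming the largest changes and list members also asked for it. The median log2 fold change over all genes tested was -0.00173. The count of called genes fell to 569 without Het replicate 2, 608 without Het replicate 3 and 678 without KO replicate 3. It was 277 with each cell given equal weight, a setting that also used another test.

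Of the 16 NuRD subunits tested, 3 were higher in KO and 1 (Gatad2b itself) was lower, beside 2.92% higher and 3.22% lower of all genes. Of the 16, 12 lay above 0, with a median log2 fold change of 0.087, against -0.00173 over all genes. Gatad2a (chr8:69907076-69996384), the paralogue that encodes p66alpha, stood at 53.0, 51.7 and 53.1 CPM in Het and 71.8, 64.1 and 67.3 in KO embryos (log2 fold change 0.37, SE 0.045, adjusted p = 0.00173). Hdac1, a histone deacetylase of the complex, measured 40.8, 38.2 and 38.2 in Het and 48.1, 49.1 and 47.5 in KO (log2 fold change 0.30, SE 0.038, adjusted p = 0.00194). For both genes every KO embryo lay above every Het embryo. Cdk2ap1, a small subunit, measured 133, 123 and 130.2 against 143, 179.9 and 151 (log2 fold change 0.29, SE 0.076, adjusted p = 0.0435) with KO replicate 2 the highest, and without that embryo its log2 fold change was 0.19 (adjusted p = 0.0508). Its call was also lost without Het replicate 1, 2 or 3 or KO replicate 3 (adjusted p from 0.0518 to 0.16). Chd4, the remodelling ATPase, passed the adjusted p but not the fold limit (308, 298 and 300.5 against 354, 338 and 363, log2 fold change 0.22, SE 0.040, adjusted p = 0.0115). Mbd2, a methyl-DNA reader, did the same (28.6, 28.4 and 29.4 against 32.8, 34.1 and 32.7, log2 fold change 0.20, SE 0.036, adjusted p = 0.0101). The remaining subunits (Chd3, Chd5, Hdac2, Mta1, Mta2, Mta3, Mbd3, Rbbp4, Rbbp7 and Cdk2ap2) were not called over all cells: Rbbp4, a histone chaperone, measured 195, 187 and 192 in Het and 189, 193 and 186 in KO.

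**Figure D1:**
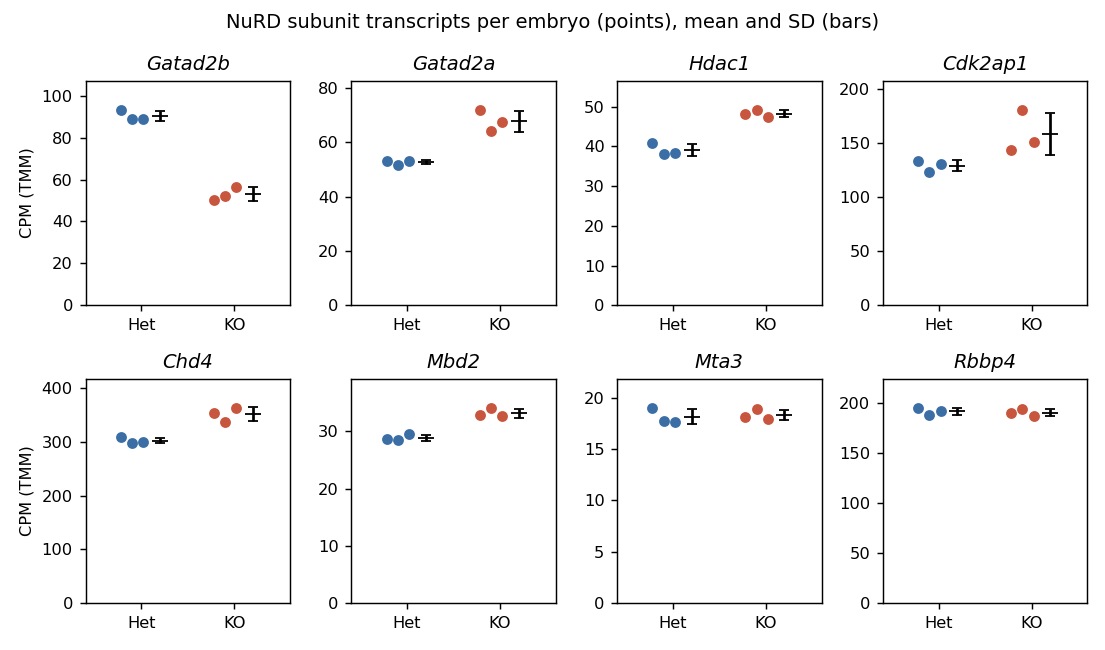
CPM (vertical axes, from 0) of 8 NuRD subunits in each Het and KO embryo (points), with the mean and SD of the 3 embryos of a group as bars. Gatad2b lies lower in KO, Gatad2a and Hdac1 lie higher without overlap, Cdk2ap1 has 1 high KO embryo, and Mta3 and Rbbp4 overlap.

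Among genes with a mean of at least 10 CPM, 269 were called higher and 241 lower in KO, of 8640 tested. Mc4r, a melanocortin receptor, had the largest rise: it measured 6.32, 4.52 and 6.53 in Het and 21.1, 15.7 and 15.5 in KO (log2 fold change 1.59, SE 0.15, adjusted p = 0.000519). Ucp2, an uncoupling protein of the inner mitochondrial membrane, came next at 8.74, 7.54 and 8.499 against 18.0, 16.6 and 14.4 (log2 fold change 0.98, SE 0.087, adjusted p = 0.000339). Both, like every gene of this ranking, entered it only because KO and Het embryos did not overlap. Sox5, a transcription factor of deep-layer projection neurons, rose from 248, 195 and 219 to 416, 351 and 370.0 (log2 fold change 0.78, SE 0.088, adjusted p = 0.00119). Rprm, a p53 target expressed in layer VI neurons, rose from 153, 165 and 161 to 319, 256 and 243 (log2 fold change 0.77, SE 0.089, adjusted p = 0.00127), with KO replicate 1 the highest. Gm42047, Acrbp, Lgals7, Necab3, Ttc39b, Card19, Arg2 and Rwdd3 completed the 12 largest rises, with log2 fold changes of 0.71 to 0.97.

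The largest falls included neuropeptide genes. Npy (neuropeptide Y) measured 88.4, 99.9 and 117 in Het and 34.7, 32.8 and 38.7 in KO (log2 fold change -1.52, SE 0.098, adjusted p = 9.06e-05). Nts (neurotensin) measured 18.2, 19.5 and 26.5 against 3.96, 9.41 and 6.01 (log2 fold change -1.74, SE 0.26, adjusted p = 0.00404), with KO replicate 2 the highest of the KO embryos and still below every Het embryo. Tenm3, a teneurin adhesion protein of axons and synapses, measured 72.4, 72.8 and 70.7 in Het and 42.4, 39.8 and 38.5 in KO (log2 fold change -0.84, SE 0.042, adjusted p = 5.13e-05). Ndnf, a secreted factor of Cajal-Retzius and layer I cells, measured 28.8, 45.6 and 30.9 against 14.9, 13.3 and 22.1 (log2 fold change -1.06, SE 0.21, adjusted p = 0.0144). Kif26b, a kinesin family member, measured 18.1, 20.0 and 21.9 in Het and 9.87, 8.79 and 10.4 in KO (20.0 ± 1.89 against 9.68 ± 0.811, mean ± SD, n = 3 each, log2 fold change -1.04, SE 0.081, adjusted p = 0.000176). Akap7, an anchoring protein of protein kinase A, 2900009J06Rik, Kcnk1, a potassium leak channel, Mast4, Dtx4, Caln1 and Gabrb1 completed the 12 largest falls, with log2 fold changes of -1.002 to -0.83.

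**Figure D2:**
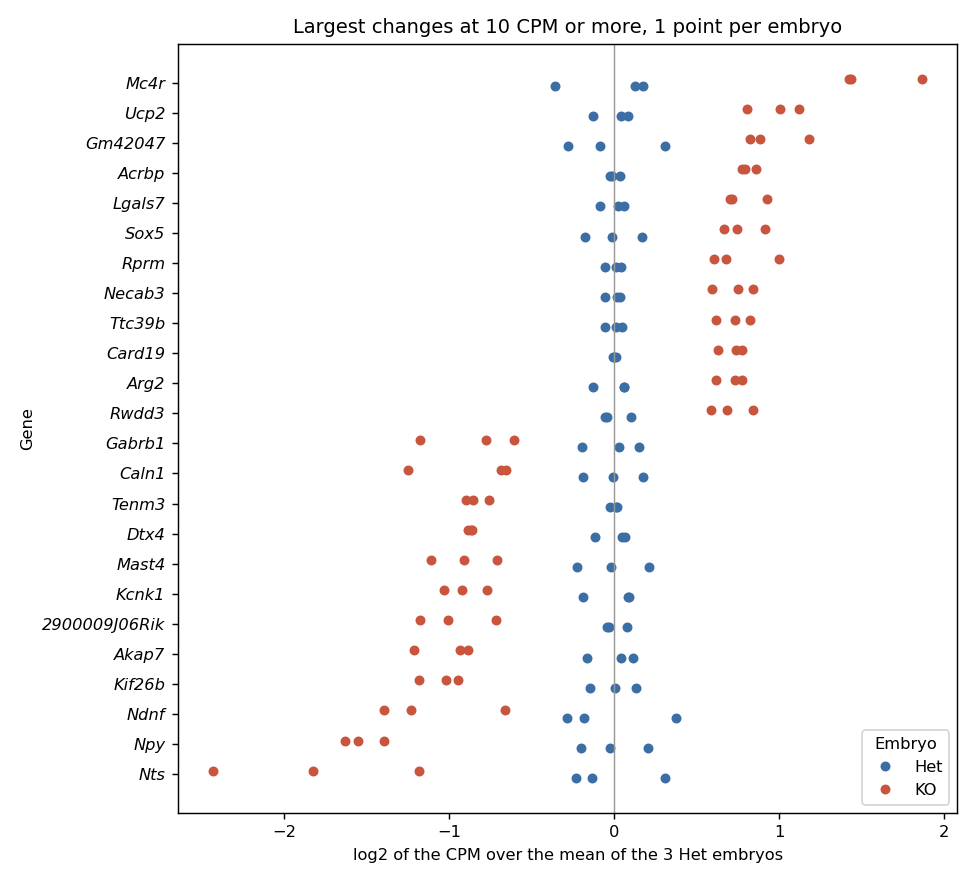
Each point is 1 embryo, placed by the log2 of its CPM over the mean of the 3 Het embryos, for the 12 largest rises and 12 largest falls among called genes with at least 10 CPM. Mc4r lies farthest to the right and Nts farthest to the left, with the widest spread among KO embryos for Nts.

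Below 10 CPM the largest rise was that of Ldb3, which encodes a Z-disc protein of muscle. Ldb3 (chr14:34526603-34588682) measured 1.24, 1.16 and 1.13 in Het and 7.42, 7.04 and 6.63 in KO (log2 fold change 2.58, SE 0.10, adjusted p = 9.87e-06), the groups lying far apart with little spread. Crabp2, a carrier of retinoic acid, measured 2.00, 1.87 and 2.93 against 5.27, 12.3 and 9.08 (log2 fold change 1.96, SE 0.29, adjusted p = 0.004). Fas, a death receptor, measured 0.554, 0.659 and 0.819 against 0.186, 0.134 and 0.208 (log2 fold change -1.92, SE 0.24, adjusted p = 0.00192), and Ptk2b, a calcium-sensitive tyrosine kinase, measured 1.43, 1.99 and 2.42 against 0.557, 0.425 and 0.603 (log2 fold change -1.87, SE 0.22, adjusted p = 0.00134). Sim1, Gm21859 and 1700009C05Rik (higher) and D030025P21Rik, Gm28928 and Wnt10a (lower) completed this group, and every one of the 6 stayed below 1 CPM. A gene entered the test if at least 3 embryos reached 0.104 CPM, and none of these 6 genes did so in all 3 embryos of its lower group. Sim1 and Gm21859 reached it in 0 Het embryos and D030025P21Rik in 0 KO embryos. These 3 were tested only through the group in which they were high and so had to differ. Gm28928 reached the limit in 1 KO embryo, Wnt10a in 2 KO embryos and 1700009C05Rik in 1 Het embryo. The rank of the 6 genes among the largest changes is no result. DESeq2 gave no adjusted p for Sim1, Gm21859, D030025P21Rik and Gm28928. Wnt10a lost its call without Het replicate 2, Het replicate 3 or KO replicate 3, and Sim1 without Het replicate 3 or KO replicate 3.

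Deep-layer and upper-layer neuron genes did not move as 1 block. Of 20 deep-layer genes 8 were higher and 4 lower in KO (median log2 fold change 0.15), beside 2.92% and 3.22% of all genes. Bcl11b (Ctip2), a regulator of subcerebral projection neurons, measured 394, 406 and 430.2 in Het and 535, 549.9 and 547 in KO (log2 fold change 0.41, SE 0.044, adjusted p = 0.000883). Fezf2, which specifies the same neurons, measured 105, 88.3 and 91.1 against 177, 143 and 144 (log2 fold change 0.71, SE 0.091, adjusted p = 0.00215). In both the KO embryos stood above all Het embryos, as they did for Tbr1 (0.26), Nfia (0.43) and Nfib (0.37), transcription factors of early-born neurons and of glia, and Nxph4 (0.38), a subplate marker. Nxph4 lost its call without Het replicate 2 or 3. Against the direction of those 8 genes, Nr4a2, a nuclear receptor of subplate and claustrum neurons, measured 64.1, 55.0 and 65.4 in Het and 36.5, 35.3 and 33.7 in KO (log2 fold change -0.81, SE 0.064, adjusted p = 0.000194). Lmo4 (log2 fold change -0.46), Crym (-0.70) and Hs3st4 (-0.37) were also lower, and the count of 4 lower genes fell to 2 without Het replicate 3, KO replicate 2 or KO replicate 3.

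Of 18 upper-layer genes 1 was higher and 5 lower (median -0.17), beside 2.92% higher and 3.22% lower of all genes. Nectin3, a cell adhesion protein, measured 36.3, 39.0 and 37.5 in Het and 27.4, 24.9 and 27.9 in KO (log2 fold change -0.49, SE 0.050, adjusted p = 0.000605). Mef2c, a transcription factor that regulates synapse number, measured 754, 811 and 823 against 652, 623 and 621 (log2 fold change -0.33, SE 0.047, adjusted p = 0.00351). The secreted factor Ptn (log2 fold change -0.37), the semaphorin receptor Plxna4 (-0.29) and the ligand Kitl (-0.25) were the other lower members. Plxna4 lost its call without KO replicate 1. Mdga1, an adhesion protein of upper-layer neurons, went the other way (25.5, 24.0 and 23.7 against 31.2, 29.2 and 29.6, log2 fold change 0.30, SE 0.044, adjusted p = 0.00426).

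Neurogenic and mitosis genes lay on the higher side in KO. Of 17 intermediate progenitor and neurogenic genes 8 were higher and 0 lower by edgeR (median 0.30), beside 2.92% and 3.22% of all genes, and with DESeq2 8 were higher and 1 lower. Rnd2, a small GTPase of migrating newborn neurons, measured 66.3, 61.8 and 60.9 in Het and 94.5, 102 and 106 in KO (log2 fold change 0.68, SE 0.051, adjusted p = 0.000167). Gadd45g, which is transiently expressed as progenitors leave the cycle, measured 57.6, 48.8 and 48.1 against 73.6, 78.3 and 75.4 (log2 fold change 0.56, SE 0.066, adjusted p = 0.00139). Tmem178 (0.54) and Mfng (0.54), a modifier of Notch receptors, also rose. Eomes, the defining marker of intermediate progenitors and named here outside the rule for named genes, overlapped between groups (83.9, 54.9 and 60.4 against 85.3, 66.9 and 87.9, log2 fold change 0.27, SE 0.15, adjusted p = 0.323). The count of 8 became 12 without Het replicate 1, 5 without Het replicate 3 and 5 without KO replicate 3. Of 25 radial glia genes 3 were higher and 0 lower by edgeR (3 and 1 with DESeq2, median 0.11), led by the intermediate filament gene Vim at 238, 214 and 226 against 328, 266 and 316 (log2 fold change 0.43, SE 0.075, adjusted p = 0.00932). Prom1, another of the 3, lost its call without Het replicate 2, Het replicate 3 or any 1 of the KO replicates (1, 2 or 3). Intermediate progenitor markers summed to 362 to 459 CPM in Het and 477 to 505 in KO, and radial glia markers to 977 to 1102 and 930.1 to 1267. These markers include called genes of both lists (Gadd45g, Neurog1, Sstr2 and Vim), so the sums are no separate result. The part of these cells in the changes over all cells was not tested.

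Of 30 mitosis genes 15 were higher and 0 lower, all 30 lay above 0, and their median log2 fold change was 0.28, beside 2.92% of all genes called higher. Of 3 clusters led by cell cycle genes 2 took a larger share of every KO embryo than of any Het embryo: the ganglionic eminence progenitor-like cluster, led by Hist1h1b, Hist1h2ab and Top2a with Mki67 among its leading genes, took 2.26% ± 0.12 of cells in Het and 2.99% ± 0.23 in KO (SD, n = 3), and the unnamed cluster led by Ube2c and Cenpf took 0.962% to 0.993% in Het and 1.07% to 1.46% in KO. The cluster led by Ccnd2, Cdca7, Mcm3 and Uhrf1 overlapped (2.89% to 3.35% in Het, 3.12% to 4.70% in KO). With the resolution doubled, the cluster led by Hist1h1b, Hist1h2ab and Top2a (1.63% to 1.96% in Het, 2.17% to 2.70% in KO) and the one led by Ccnd2, Mcm3 and Uhrf1 (1.52% to 1.75%, 1.79% to 2.51%) did not overlap. The one led by Ube2c and Cenpf (0.514% to 0.797%, 0.716% to 1.05%) and the one led by Ube2c and Top2a (0.802% to 1.64%, 1.13% to 1.36%) did. The part of these clusters in the rise of mitosis genes over all cells was not tested. At the main resolution, several clusters led by other genes also did not overlap between groups, with smaller shares in KO. Each non-overlapping cluster had p = 0.1 in the exact permutation test, its smallest value, without adjustment over clusters. Cdc20, an activator of the anaphase-promoting complex, measured 22.1, 20.1 and 20.0 in Het and 27.5, 29.3 and 27.1 in KO (log2 fold change 0.43, SE 0.051, adjusted p = 0.00146). Bub1b, a kinase of the spindle checkpoint, measured 13.7, 10.9 and 11.4 against 16.3, 16.2 and 16.7 (log2 fold change 0.45, SE 0.078, adjusted p = 0.00896). Cenpa, the centromeric histone (0.33), and Hmmr, a spindle protein (0.32), followed, and Cenpa lost its call without Het replicate 2 and Hmmr without Het replicate 2, Het replicate 3 or KO replicate 3. The count of 15 depended on single embryos: it was 23 without Het replicate 1, 2 without Het replicate 2, 3 without Het replicate 3, 7 without KO replicate 1 and 5 without KO replicate 3. With at most 5.0% mitochondrial UMIs per cell it was 1, and with Het replicate 4 added it was 4. Of 30 DNA replication genes 0 were called by edgeR and 2 by DESeq2, 11 had an unadjusted p under 0.05, and their median was 0.13.

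The promoters of these 4 mitosis genes are printed because a pair of short elements is known from promoters of this kind. The CCAAT box is bound by NF-Y, and the TTTGAA element is bound by the MuvB core of the cell cycle repressor and activator complexes. Each sequence is the RefSeq strand of the gene (GRCm38.p6), from 250 bases before to 50 bases after a transcription start, 5′ to 3′. Capitals mark CCAAT or its reverse complement ATTGG, and TTTGAA or its reverse complement TTCAAA.
Cdc20: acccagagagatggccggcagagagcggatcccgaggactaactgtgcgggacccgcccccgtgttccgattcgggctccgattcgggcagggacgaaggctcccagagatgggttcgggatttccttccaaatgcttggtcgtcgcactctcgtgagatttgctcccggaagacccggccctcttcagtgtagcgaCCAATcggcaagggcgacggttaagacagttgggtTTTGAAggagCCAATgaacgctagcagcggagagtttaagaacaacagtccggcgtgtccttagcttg
Bub1b: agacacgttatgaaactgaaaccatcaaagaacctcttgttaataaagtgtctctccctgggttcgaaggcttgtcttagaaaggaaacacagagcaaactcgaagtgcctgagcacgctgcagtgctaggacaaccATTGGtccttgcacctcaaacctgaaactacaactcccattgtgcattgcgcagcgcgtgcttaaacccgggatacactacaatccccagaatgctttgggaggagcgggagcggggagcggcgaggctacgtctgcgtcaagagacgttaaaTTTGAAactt
Cenpa: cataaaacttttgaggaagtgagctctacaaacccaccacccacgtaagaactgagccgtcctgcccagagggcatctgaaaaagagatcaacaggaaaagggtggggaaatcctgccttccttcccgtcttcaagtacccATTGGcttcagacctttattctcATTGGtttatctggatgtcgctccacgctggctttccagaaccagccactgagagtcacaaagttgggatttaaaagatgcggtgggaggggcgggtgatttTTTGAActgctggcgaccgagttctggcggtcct
Hmmr: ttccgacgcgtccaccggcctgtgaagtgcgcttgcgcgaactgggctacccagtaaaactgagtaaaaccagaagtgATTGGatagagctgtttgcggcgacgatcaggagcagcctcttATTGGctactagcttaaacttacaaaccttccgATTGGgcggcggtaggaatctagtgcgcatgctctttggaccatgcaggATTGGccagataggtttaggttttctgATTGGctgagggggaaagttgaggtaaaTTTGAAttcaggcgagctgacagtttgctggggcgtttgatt
They lie at chr4:118437294-118437593 (minus strand, Cdc20), chr2:118597961-118598260 (plus, Bub1b), chr5:30666636-30666935 (plus, Cenpa) and chr11:40733388-40733687 (minus, Hmmr). Over both strands, 23 of 29 mitosis gene promoters held CCAAT (79.3%), 23 held TTTGAA and 20 held both (69.0%). Of all 32851 promoters of the same length, 37.4% held CCAAT, 17.9% TTTGAA and 6.95% both. The 13 promoters of mitosis genes that were higher in KO held CCAAT in 11 cases and both elements in 9 cases (69.2%), a share close to that of the whole list. A match is a description of letters in these windows.

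Receptor genes of synapses lay on the lower side in KO. Of 12 GABA-A receptor subunits 0 were higher and 6 lower by edgeR (0 and 7 with DESeq2, median -0.47), beside 2.92% higher and 3.22% lower of all genes. Of 17 ionotropic glutamate receptor subunits 0 were higher and 7 lower by edgeR (median -0.32), and with DESeq2 2 were higher and 8 lower. Gabrb2 measured 10.6, 11.5 and 10.7 in Het and 7.92, 7.79 and 8.60 in KO (log2 fold change -0.44, SE 0.063, adjusted p = 0.00365). Gabrb1 measured 16.0, 18.6 and 20.3 against 10.7, 8.08 and 12.01 (log2 fold change -0.83, SE 0.13, adjusted p = 0.00594). Neither gene overlapped between the groups, which the rule for naming list members had asked for. Among glutamate receptors, Grin1, the obligatory NMDA receptor subunit, measured 11.7, 13.6 and 13.2 against 10.2, 9.59 and 9.55 (log2 fold change -0.39, SE 0.067, adjusted p = 0.00841). Grin2b, the NMDA receptor subunit that prevails before birth, measured 204, 215 and 226 against 179.6, 146 and 166 (log2 fold change -0.39, SE 0.069, adjusted p = 0.0101). Grin2a (-0.86), another NMDA receptor subunit, was also lower. The GABA-A count of 6 fell to 2 without Het replicate 2 or Het replicate 3 and to 3 without KO replicate 1 or KO replicate 2. The glutamate receptor count of 7 fell to 4 without Het replicate 2, Het replicate 3 or KO replicate 1. Both counts were lower still with each cell given equal weight, a setting that also used another test.

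Adhesion, guidance and channel lists held genes called in each direction, beside 2.92% higher and 3.22% lower of all genes. Of 40 synaptic and axonal adhesion genes 3 were higher and 7 lower. Ptprk, a receptor phosphatase, measured 72.1, 68.2 and 72.0 in Het and 50.5, 49.8 and 54.6 in KO (log2 fold change -0.46, SE 0.045, adjusted p = 0.000541). Slitrk1, which organises synapses, measured 41.4, 40.3 and 42.4 against 31.6, 29.0 and 30.8 (log2 fold change -0.44, SE 0.041, adjusted p = 0.000462). The leucine-rich repeat protein Lrrtm3 went the other way (18.3, 15.1 and 16.4 against 28.2, 21.9 and 23.5, log2 fold change 0.56, SE 0.097, adjusted p = 0.00849), as did Tenm4 (0.28) and Dscam (0.26). Tenm4 lost its call without Het replicate 2, Het replicate 3 or KO replicate 3, and Dscam without Het replicate 2 or KO replicate 2. Of 45 axon guidance genes 3 were higher and 4 lower: the netrin receptor Dcc measured 29.4, 33.2 and 28.6 against 36.5, 38.9 and 42.8 (log2 fold change 0.37, SE 0.070, adjusted p = 0.0125), and the netrin receptor Unc5c 21.2, 23.8 and 22.5 against 13.8, 15.5 and 17.0 (log2 fold change -0.54, SE 0.076, adjusted p = 0.00314). Dcc lost its call without Het replicate 3. Of 25 cadherins 1 was higher (Cdh13, 0.47) and 4 lower, led by Pcdh7 at 61.3, 60.2 and 65.9 against 42.2, 37.4 and 44.5 (log2 fold change -0.59, SE 0.063, adjusted p = 0.000776). Of 34 voltage-gated channel genes 1 was higher, a share near that of all genes, and 6 lower. The sodium channel gene Scn3a measured 96.3, 97.2 and 97.2 against 71.3, 79.8 and 80.3 (log2 fold change -0.33, SE 0.048, adjusted p = 0.00398). Of 30 cytoskeleton genes of neurons 2 were higher, the neurofilament genes Nefm and Nefl, and 0 lower (median -0.0078). Nefm measured 131, 119 and 115 against 183, 183 and 153 (log2 fold change 0.51, SE 0.074, adjusted p = 0.00384).

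Cajal-Retzius genes were lower over all cells. These early marginal zone neurons secrete reelin, and 7 of 10 of their genes were lower and 0 higher by edgeR (8 and 0 with DESeq2, median -0.60), beside 3.22% of all genes lower. Reln measured 87.7, 128 and 90.0 in Het and 68.2, 60.3 and 73.6 in KO (log2 fold change -0.59, SE 0.13, adjusted p = 0.0249), and Cxcr4, the chemokine receptor, 10.9, 14.0 and 12.8 against 8.02, 8.57 and 8.71 (log2 fold change -0.57, SE 0.088, adjusted p = 0.00509). Calb2 (calretinin), shared with interneurons, measured 34.0, 51.4 and 36.3 against 21.4, 24.2 and 29.0 (log2 fold change -0.71, SE 0.15, adjusted p = 0.0219). The KO embryos were lower in all these genes, and in sums over all cells fewer cells of a type and less RNA per cell cannot be told apart. Calb2 was also among the leading genes of an unnamed cluster (Tac2, Prox1, Calb2) that took 0.839%, 0.910% and 0.641% of cells in Het and 0.375%, 0.291% and 0.356% in KO, and its part in the fall of Calb2 was not tested. Reln lost its call without any 1 of the KO replicates (1, 2 or 3), and Calb2 without KO replicate 1 or KO replicate 2. The count of 7 fell to 2 without KO replicate 1 or KO replicate 2 and to 4 without Het replicate 2 or KO replicate 3, and to 0 when Het replicate 4 was added. The 6 Cajal-Retzius markers summed to 137 to 204 CPM in Het and 89.8 to 113 in KO, none of them at 0 in all embryos. Reln, Ndnf, Lhx1 and Lhx5, all called lower, are among these markers, so the sum is no separate result. Within excitatory neuron-like cells, from which Cajal-Retzius-like cells were kept apart, Reln was low and went the other way (6.89, 8.29 and 6.94 against 9.91, 9.88 and 13.1, log2 fold change 0.57, SE 0.12, adjusted p = 0.00676). Of 7 Cajal-Retzius genes tested in that class 2 were higher (Nhlh2 and Reln) and 2 lower (Ndnf and Cxcr4), beside 5.34% higher and 4.52% lower of all its genes.

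Gene lists of other regions and of non-neuronal cells gave these values, beside 2.92% higher and 3.22% lower of all genes. Of 8 thalamic and hippocampal genes 0 were higher and 2 lower (Wnt8b and Zbtb20, median -0.31): Wnt8b, a Wnt ligand gene of the cortical hem, measured 1.07, 0.853 and 0.532 in Het and 0.204, 0.328 and 0.257 in KO (log2 fold change -1.65, SE 0.29, adjusted p = 0.00935), and Zbtb20, a transcription factor gene of the hippocampus, 629, 704 and 673 against 523, 473 and 567 (log2 fold change -0.36, SE 0.069, adjusted p = 0.0134). Zbtb20 lost its call without Het replicate 2 or Het replicate 3. It also stood high within excitatory neuron-like cells, and the study lists it as changed in its layer II-IV cluster. The part of hippocampal cells in its fall, or of the unnamed cluster led by Tac2, Prox1 and Calb2, was not tested. Of 12 choroid plexus genes 5 were tested, 0 were higher and 1 was lower (1500015O10Rik), which lost its call without Het replicate 1, 2 or 3 or KO replicate 1 or 2. Of 9 erythroid genes 3 were lower: Hba-a1, a haemoglobin subunit, measured 2906, 4039 and 3461 in Het and 2489.7, 2535 and 2065 in KO (log2 fold change -0.55, SE 0.12, adjusted p = 0.0187). Hba-a1 lost its call without Het replicate 2, Het replicate 3 or KO replicate 3. The 3 lower genes (Hba-a1, Hba-a2 and Hbb-bs) are also among the erythroid markers summed above. Within excitatory neuron-like cells Hba-a1 overlapped between groups (72.7, 67.8 and 37.2 against 35.7, 5.71 and 154, log2 fold change 0.14, SE 0.72, adjusted p = 0.93). Of 12 microglia and 11 endothelial genes 0 were called by edgeR or DESeq2, and 0 had an unadjusted p under 0.05. Of 12 mural and meningeal genes 0 were higher and 2 lower (Pdgfrb and Kcnj8, median -0.32). The markers of these cells summed to 77.6 to 95.3 CPM in Het and 63.5 to 75.9 in KO, without overlap. These markers include Pdgfrb and Kcnj8, so their sum is no separate result. Pdgfrb lost its call without Het replicate 3 or KO replicate 3, and Kcnj8 without Het replicate 2, Het replicate 3, KO replicate 2 or KO replicate 3. With the cells of the highest doublet scores removed, the log2 fold change was -0.096 for Kcnj8 (adjusted p = 0.865) and -0.33 for Pdgfrb (adjusted p = 0.412), neither of them called, and with erythroid-like, vascular-like, microglia-like and unnamed clusters removed that of Kcnj8 turned to 0.29 (adjusted p = 0.613). Of 6 oligodendrocyte precursor genes all 6 lay below 0 (median -0.44) and 1 was called lower, Cspg4, which lost its call without Het replicate 2, Het replicate 3, KO replicate 2 or KO replicate 3. Endothelial markers summed to 75.3 to 122 CPM in Het, with Het replicate 3 the highest, and to 67.9 to 82.6 in KO. With the cluster mostly from Het replicate 3 removed, 1025 genes were called in place of 1054, of which 1002 were the same calls. With erythroid-like, vascular-like, microglia-like and unnamed clusters removed, 1171 were called and 949 calls were kept.

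**Figure D3:**
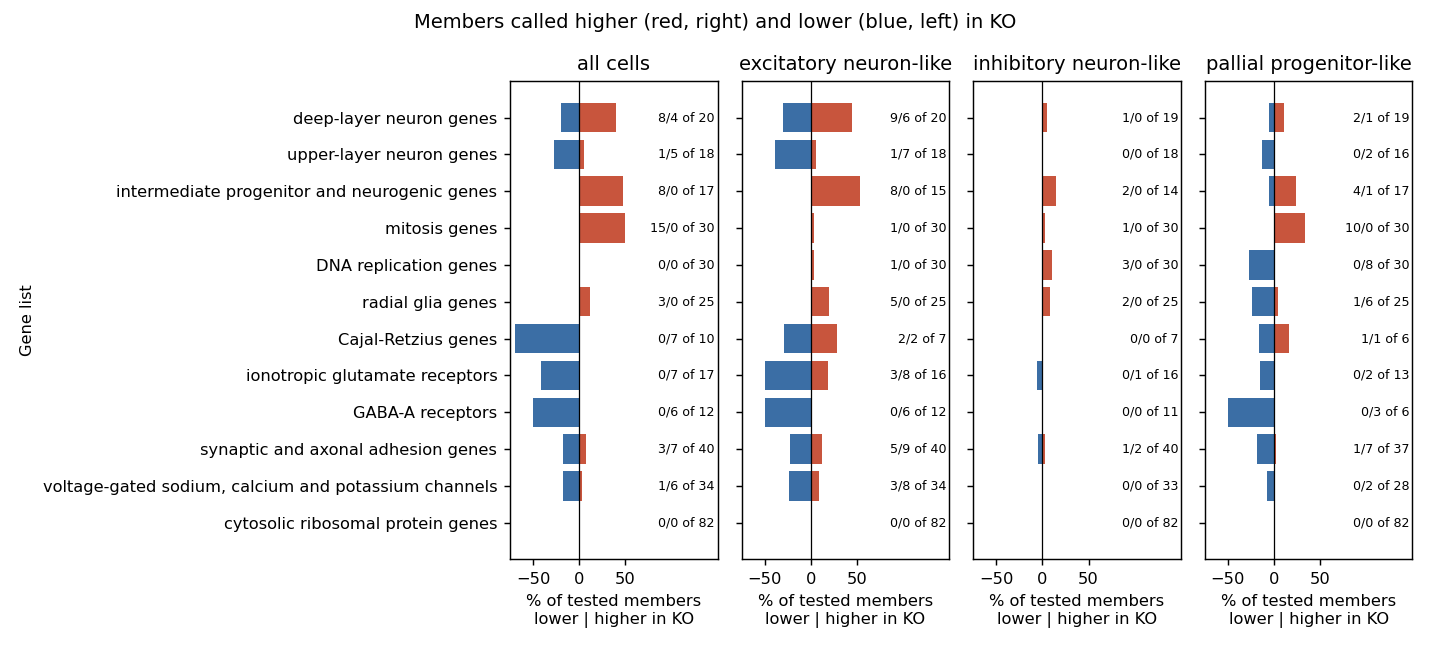
For 12 gene lists (vertical axis), the percent of tested members called higher (red bars, to the right) and lower (blue bars, to the left) in KO, over all cells and within 3 classes of cells; the text in each row gives members called higher/lower of those tested. Mitosis and neurogenic genes extend to the right over all cells, receptor and Cajal-Retzius genes to the left, and the inhibitory neuron-like panel holds few calls.

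Cells were then clustered without the genes called over all cells, and 11 classes were named from markers, each called "-like". Within excitatory neuron-like cells (15638 cells), 1493 of 15149 genes were called (9.86%), 809 higher (5.34%) and 684 lower (4.52%), and 4069 had an unadjusted p under 0.05. Of the called genes, 797 were also called in the same direction over all cells and 3 in the other. Gatad2b was at 92.6, 85.6 and 87.9 in Het and 45.4, 45.6 and 50.1 in KO (log2 fold change -0.92, SE 0.049, adjusted p = 1.9e-06). In this class the NuRD genes Chd4 (266, 265 and 269 against 330.5, 318 and 348, log2 fold change 0.31, SE 0.039, adjusted p = 0.000364) and Mbd2 (26.8, 26.8 and 26.3 against 33.1, 34.5 and 33.2, log2 fold change 0.34, SE 0.038, adjusted p = 0.000184) passed both limits, and every KO embryo was above every Het embryo for both.

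Nts was at less than 1 CPM in the excitatory neuron-like cells of 2 KO embryos. It measured 27.5, 26.4 and 27.4 in Het and 0.597, 0.901 and 4.75 in KO (log2 fold change -3.72, SE 0.40, adjusted p = 0.000141), with KO replicate 3 above the other two. In inhibitory neuron-like cells Nts measured 8.93, 19.8 and 33.0 against 27.3, 51.2 and 17.6, and the groups overlapped (log2 fold change 0.60, SE 0.41, adjusted p = 0.644). Deep-layer genes in excitatory neuron-like cells were 9 higher and 6 lower of 20, and upper-layer genes 1 higher and 7 lower of 18. Of the 6 thalamic and hippocampal genes tested in this class 0 were higher and 4 lower (Tcf7l2, Zbtb20, Prox1 and Emx2, median -0.48), beside 4.52% of all genes lower. Tcf7l2, a transcription factor gene of thalamic neurons, stayed below 1 CPM in every embryo at 0.850, 0.888 and 0.728 against 0.377, 0.286 and 0.279 (log2 fold change -1.36, SE 0.22, adjusted p = 0.00194), and Zbtb20 measured 459, 580.1 and 569 against 385, 297 and 405 (log2 fold change -0.57, SE 0.11, adjusted p = 0.00543). The part of these genes' cells in the layer values was not tested. Nfia measured 461, 423 and 452 against 668, 652 and 663 (log2 fold change 0.57, SE 0.042, adjusted p = 1.34e-05), Fezf2 158, 134 and 139.9 against 268, 232 and 237 (log2 fold change 0.77, SE 0.066, adjusted p = 2.63e-05). Etv1, a layer V transcription factor, was in contrast lower at 16.48, 20.8 and 21.1 against 10.0, 5.95 and 7.80 (log2 fold change -1.28, SE 0.15, adjusted p = 0.000212), and so was Foxp2 of layer VI at 31.2, 23.7 and 30.7 against 21.3, 18.8 and 19.6 (log2 fold change -0.52, SE 0.091, adjusted p = 0.00312). The neurogenic genes Tmem178 (0.82), Nhlh2 (0.79) and Gadd45g (0.76) were among 8 of 15 that rose in these neurons, with 0 lower, beside 5.34% of all genes higher. Of 25 radial glia genes 5 were higher and 0 lower (median 0.21), and of 17 immediate early genes 4 were higher and 1 lower. Whether these rises go together was not tested. GABA-A subunits were lower in 6 of 12 and glutamate receptor subunits in 8 of 16, with 3 of the latter higher. Only Racgap1 of 30 mitosis genes was called in this class. Ldb3 had a log2 fold change of 2.76 here, at 1.43, 1.29 and 1.31 in Het and 9.36, 9.20 and 8.72 in KO. Etv1, Foxp2, Nhlh2 and Racgap1 were chosen after their values were seen.

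Within inhibitory neuron-like cells (9419 cells), 126 of 13426 genes were called (0.938%), 63 higher (0.469%) and 63 lower (0.469%), and 1583 had an unadjusted p under 0.05. The sums of this class were smaller than those of the 15638 excitatory neuron-like cells. Median UMIs per cell were 6695 to 11183 in its clusters, against 5754.5 to 26369.5 in the excitatory ones. The classes were not compared at equal depth, so the lower count does not show a smaller response. This count was 38 without Het replicate 2, 73 without KO replicate 1, 58 without KO replicate 2 and 51 without KO replicate 3, and 211 with DESeq2. Gatad2b fell by less than in excitatory neuron-like cells, at 105, 95.1 and 101 against 67.1, 68.0 and 70.3 (log2 fold change -0.55, SE 0.054, adjusted p = 0.00212), and the difference between the classes was 0.36 (log2, SE 0.046, adjusted p = 0.00117). Npy, which marks a subset of interneurons, measured 221, 281 and 330.3 against 127, 109 and 149.96 (log2 fold change -1.11, SE 0.14, adjusted p = 0.0035). Npy was lower in excitatory neuron-like cells too (log2 fold change -1.82, SE 0.10, adjusted p = 2.91e-06), so its fall was not limited to the inhibitory class. Nfia rose from 116, 109 and 119.9 to 177, 166 and 154 (log2 fold change 0.52, SE 0.062, adjusted p = 0.00341). The progenitor filament gene Nes rose from 25.7, 23.2 and 25.1 to 37.0, 43.9 and 38.3 (log2 fold change 0.69, SE 0.081, adjusted p = 0.00341). The proliferation marker Mki67 measured 12.1, 9.88 and 9.35 against 18.8, 15.7 and 15.2 (log2 fold change 0.67, SE 0.12, adjusted p = 0.0324), and 3 of 30 DNA replication genes were higher with 0 lower. The class held a cluster of 1195 cells led by Ccnd2, Cdca7, Mcm3 and Uhrf1, whose marker score was higher for ganglionic eminence progenitors (1.86) than for inhibitory neurons (1.53). It took 2.89%, 2.96% and 3.35% of cells in Het and 3.12%, 4.70% and 3.74% in KO, and its part in the values of Nes, Mki67 and the replication genes was not tested. Of 11 GABA-A subunits 0 were called in this class and 0 had an unadjusted p under 0.05.

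A gene's change was compared between the neuron classes by the interaction of class and genotype, with the embryo as a block. Of 15208 genes 509 (3.35%) differed at an adjusted p under 0.05 in edgeR, 248 (1.63%) with a larger value in inhibitory and 261 (1.72%) in excitatory neuron-like cells, and 2267 had an unadjusted p under 0.05. The count was 285 without Het replicate 2 and 333 without KO replicate 1. Tmem176b, a membrane protein of the MS4A family, measured 8.86, 8.71 and 8.04 in Het and 25.7, 26.1 and 26.2 in KO excitatory neuron-like cells, and 59.5, 61.6 and 67.0 against 71.7, 84.2 and 74.2 in inhibitory ones (difference of log2 fold changes -1.32, SE 0.087, adjusted p = 1.62e-05). It rose in the former and was not called in the latter. Tenm3 measured 106, 107 and 104 against 54.7, 52.7 and 50.8 in excitatory and 33.7, 28.9 and 34.0 against 37.4, 34.7 and 33.9 in inhibitory neuron-like cells (difference 1.14, SE 0.074, adjusted p = 1.62e-05). Gria1, an AMPA receptor subunit, measured 27.3, 30.7 and 29.1 against 35.3, 31.9 and 38.3 in excitatory neuron-like cells and 202, 214 and 192 against 138, 117 and 141 in inhibitory ones (difference -0.90, SE 0.053, adjusted p = 1.62e-05). Gria1 thus rose in one class and fell in the other. Of 13258 genes tested in both classes, 52 were called in both in the same direction and 4 in opposite directions (Gria1, Cdh13, Cbfa2t3 and Shisa6). An inhibitory cluster led by Nxph1, Maf, Lhx6, Sst and Gria1 took 7.39%, 8.49% and 7.45% of the cells in Het and 5.78%, 5.56% and 6.49% in KO embryos, and its part in the values of the inhibitory class was not tested.

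**Figure D4:**
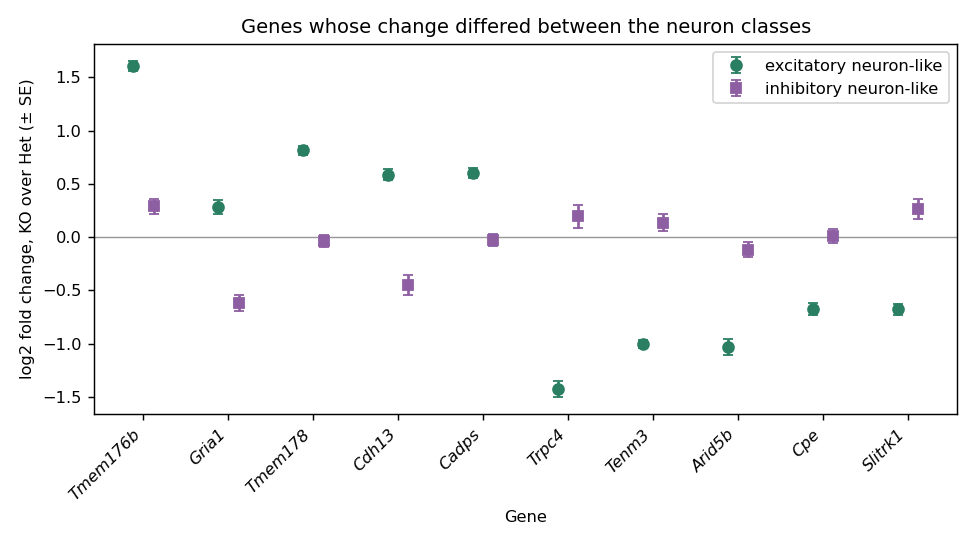
log2 fold change of KO over Het (vertical axis, points ± SE) in excitatory neuron-like (circles) and inhibitory neuron-like cells (squares) for the 5 genes with the smallest adjusted p of the interaction in each direction. Tmem176b, Tmem178 and Cadps lie above 0 in excitatory neuron-like cells, Trpc4, Tenm3, Arid5b, Cpe and Slitrk1 lie below, and Gria1 and Cdh13 have opposite signs in the 2 classes.

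Pallial progenitor-like cells joined the radial glia-like (810 cells) and intermediate progenitor-like clusters (1893 cells). Of 12518 genes 584 were called (4.67%), 248 higher (1.98%) and 336 lower (2.68%), and 2184 had an unadjusted p under 0.05. The count was 378 without Het replicate 1. Gatad2b measured 92.8, 105 and 100.4 in Het and 60.3, 52.3 and 66.3 in KO (log2 fold change -0.72, SE 0.078, adjusted p = 0.000141), and Chd3 was the NuRD member other than Gatad2a that rose, from 363, 347 and 361 to 428, 419.9 and 435 (log2 fold change 0.26, SE 0.051, adjusted p = 0.00775).

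In these progenitors mitosis and DNA replication genes went opposite ways. Of 30 mitosis genes 10 were higher and 0 lower (median 0.23), while of 30 DNA replication genes 0 were higher and 8 lower (median -0.22). Of all genes tested in this class 1.98% were higher and 2.68% lower. Cdc20 measured 71.1, 63.0 and 61.4 in Het and 92.9, 97.7 and 93.4 in KO (log2 fold change 0.53, SE 0.064, adjusted p = 0.000281). Mcm5, a subunit of the replicative helicase, measured 33.9, 32.8 and 30.5 against 25.4, 24.1 and 23.6 (log2 fold change -0.41, SE 0.085, adjusted p = 0.0118), and Dut, a nucleotide pool enzyme, 165, 169 and 155 against 133, 127 and 132 (log2 fold change -0.32, SE 0.055, adjusted p = 0.00395). The groups did not overlap in any of the 3 genes. Of 25 radial glia genes 1 was higher and 6 lower: the glutamate transporter Slc1a3 measured 309, 321 and 372 against 267, 198 and 238 (log2 fold change -0.51, SE 0.093, adjusted p = 0.00544), and Mfge8, a secreted protein gene of radial glia, 144, 149 and 170.2 against 112, 87.7 and 102 (log2 fold change -0.61, SE 0.084, adjusted p = 0.000859). The Notch effectors Hes5 (-0.40) and Hes1 (0.49) moved in opposite directions. Bcl11b, a gene of postmitotic neurons, rose from 67.0, 60.9 and 72.3 to 107, 121 and 128 (log2 fold change 0.83, SE 0.077, adjusted p = 6.67e-05), and the cell cycle inhibitor Cdkn1c from 69.8, 69.3 and 60.6 to 89.0, 132 and 121 (log2 fold change 0.76, SE 0.11, adjusted p = 0.00162). Eomes overlapped between the groups (701, 670.0 and 653 against 657, 671 and 661). Of 7 thalamic and hippocampal genes tested in these progenitors all 7 lay below 0 (median -0.43) and 3 were called lower (Wnt8b, Zbtb20 and Lhx9), and their part in the values of this class was not tested. Mcm5, Dut, Slc1a3, Mfge8, Hes1 and Hes5 were chosen after their values were seen. The unnamed cluster of mitotic cells (382 cells, led by Ube2c and Cenpf), which was not part of this class, took 0.993%, 0.992% and 0.962% of cells in Het and 1.16%, 1.46% and 1.07% in KO.

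Shares of cells were compared by a two-sided exact permutation test over the 20 splits of 3 and 3 embryos, which cannot go below p = 0.1. Excitatory neuron-like cells made up 47.5%, 46.4% and 42.7% of the cells in Het and 48.6%, 42.3% and 41.8% in KO. Inhibitory neuron-like cells made up 23.8%, 29.7% and 28.3% in Het and 23.3%, 29.9% and 27.6% in KO. Neither share differed by more than the spread. Unnamed clusters, counted in neither, held 9.01% to 14.1% of the cells of an embryo. Ganglionic eminence progenitor-like cells were 2.26% ± 0.12 in Het and 2.99% ± 0.23 in KO (SD, n = 3, exact permutation p = 0.1). Cajal-Retzius-like cells were 1.49% ± 0.30 and 1.01% ± 0.053 (exact permutation p = 0.1), and erythroid-like cells 2.98% ± 0.16 and 1.99% ± 0.24 (exact permutation p = 0.1). These 3 of 11 classes did not overlap between groups, and after adjustment over the 11 classes each had p = 0.367 in the exact permutation test. Intermediate progenitor-like cells were 5.79%, 3.79% and 3.99% in Het and 6.55%, 5.58% and 6.91% in KO (exact permutation p = 0.2). An excitatory cluster led by Nr4a2 took 2.86%, 3.32% and 3.35% of the cells in Het and 1.89%, 1.55% and 1.68% in KO. Within excitatory neuron-like cells Nr4a2 measured 103, 88.2 and 104 against 55.0, 56.4 and 55.5 (log2 fold change -0.82, SE 0.058, adjusted p = 8.66e-06). That class includes this cluster, of which Kif26b and Unc5c are also leading genes. An excitatory cluster led by Inhba and Cdh12, with Ptn and Luzp2 among its leading genes, took 6.88%, 6.50% and 6.20% in Het and 4.86%, 5.71% and 4.53% in KO. An excitatory cluster led by Fezf2, with Sox5 among its leading genes, took 5.92%, 4.41% and 4.65% in Het and 7.69%, 5.85% and 5.99% in KO, and these groups overlapped. The part of these 3 clusters in the changes of their leading genes was not tested. Shares of single clusters were not adjusted over all clusters, and further clusters also did not overlap between groups. An unnamed cluster led by Unc5d and Rnd2, genes of migrating newborn neurons, took 7.77%, 5.17% and 4.85% in Het and 7.01%, 8.005% and 8.23% in KO. Its highest marker score was for excitatory cortical neurons (1.16), yet its 2375 cells were in neither the excitatory share nor the test of that class.

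**Figure D5:**
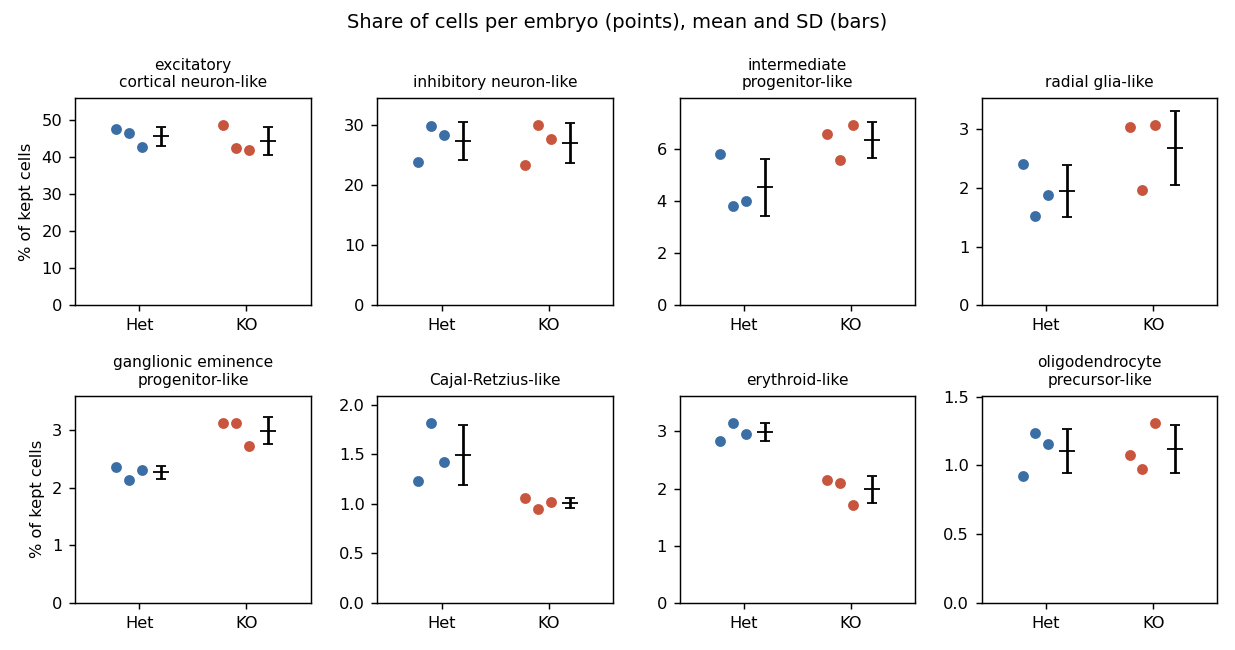
Percent of kept cells (vertical axes, from 0) in 8 of the 11 named classes for each Het and KO embryo (points), with mean and SD of 3 embryos (bars). Excitatory and inhibitory neuron-like shares overlap, ganglionic eminence progenitor-like cells lie higher in KO, and Cajal-Retzius-like and erythroid-like cells lie lower. The oligodendrocyte precursor-like class (389 cells, median 4024 UMIs) scored second for radial glia.

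Around the stop allele, 32 genes within 500 kb of Gatad2b were tested and 0 were called by edgeR or DESeq2, with 2 at an unadjusted p under 0.05, beside 6.14% of all genes called. Jtb, a membrane protein gene among them, measured 67.2, 68.8 and 65.3 in Het and 58.0, 59.6 and 55.6 in KO and missed the fold limit (log2 fold change -0.22, SE 0.039, adjusted p = 0.0108). On chromosome 3 as a whole 24 genes were higher and 29 lower of 882 (6.01%), close to the share of all genes.

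The study singled out lists of genes on these same embryos together with the WT, so these counts are no independent evidence of a direction. Of 50 symbols taken from its listing of genes sensitive to Gatad2b dosage, Gatad2b itself among them, 9 were higher and 17 lower in KO than in Het. Of 43 tested genes on its list over all cells 7 were higher and 9 lower. Of all genes tested 2.92% were higher and 3.22% lower. Itpr1, a calcium release channel, measured 56.4, 54.3 and 51.8 in Het and 31.7, 34.7 and 34.6 in KO (log2 fold change -0.69, SE 0.048, adjusted p = 0.000125). Edil3, a secreted integrin ligand, measured 82.2, 79.1 and 77.6 against 119.6, 111 and 117 (log2 fold change 0.54, SE 0.041, adjusted p = 0.000173). Dpy19l1, a mannosyltransferase gene, measured 123, 98.1 and 98.2 against 167, 163 and 165 (log2 fold change 0.63, SE 0.080, adjusted p = 0.00197). H3f3b, which encodes histone H3.3, measured 3445, 3346 and 3228 against 3745, 3996 and 3979.5 (log2 fold change 0.23, SE 0.048, adjusted p = 0.0199) over all cells and so missed the fold limit there. Within excitatory neuron-like cells H3f3b passed both limits, at 2951, 2855 and 2708 against 3277, 3479.7 and 3492 (log2 fold change 0.27, SE 0.050, adjusted p = 0.0045). Chl1, Robo1 and Pou3f2 were not called over all cells, but each was called in a class of neurons. Chl1, an adhesion protein gene, overlapped between groups over all cells at 271, 331 and 305 against 279, 277 and 261, and in inhibitory neuron-like cells it was lower in every KO embryo at 289, 274 and 288 against 189, 151 and 219 (log2 fold change -0.61, SE 0.10, adjusted p = 0.0256). In excitatory neuron-like cells Robo1, a receptor of Slit guidance cues, was higher at 163, 146.9 and 153 against 169, 197 and 188 (log2 fold change 0.26, SE 0.056, adjusted p = 0.00988). Pou3f2, a transcription factor of upper-layer neurons and their progenitors, was lower in these cells at 344, 300.4 and 309 against 183, 257 and 234.2 (log2 fold change -0.50, SE 0.099, adjusted p = 0.00603).

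For reference, the libraries with the other prefix were normalised together with these 6. Gatad2b measured 139, 130.5 and 134 CPM in WT replicates 1, 2 and 3 and 95.7 in Het replicate 4, beside 94.1, 89.9 and 89.8 in Het replicates 1 to 3 on this scale. Het replicate 4 thus lay next to the other Het embryos. For Cdk2ap1 the values were 78.2, 82.7 and 69.3 in WT and 80.0 in Het replicate 4, against 125 to 135 in Het replicates 1 to 3 and 145 to 183 in KO. Het replicate 4 lay among the WT embryos for this gene. Nts measured 42.7, 50.2 and 56.5 in WT and 13.7 in Het replicate 4, and Mc4r 4.68, 5.05 and 2.92 in WT and 6.67 in Het replicate 4. Between WT and Het replicates 1 to 3, genotype and prefix cannot be told apart.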

How the data were processed

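Single-cell RNA was measured in dissociated E16.5 mouse cortex with 10x Genomics 3′ chemistry, 1 library per embryo. The deposited files hold UMI counts per gene and barcode; per the submitters' processing notes the authors made them with Cell Ranger 6.0.2 on mm10, while the study's methods name another version, and no normalization was applied. Whether intronic reads were counted is not given in the sources used here.

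Barcodes below 1000 UMIs or above 10.0% mitochondrial UMIs were dropped, and counts were summed per embryo over all cells or within a class. edgeR 4.0.16 (R 4.3.3) tested KO against Het replicates 1 to 3 by its quasi-likelihood F-test after filterByExpr and TMM scaling, without covariates, with Benjamini-Hochberg adjustment over all genes tested. The study's test over single cells was not used, because cells are not replicates. In simulated counts for 16995 genes of this comparison, genes changed by 0.25, 0.5 and 1 on the log2 scale passed the adjusted p in 22 of 67, 45 of 66 and 55 of 64 cases, and 7 unchanged genes passed. With 3 embryos per group p-values measure the spread between these embryos, and the labels do not say whether they came from separate litters.

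Cells were clustered with scanpy 1.11.5 (2000 variable genes, 30 components, 15 neighbours, Leiden resolution 1.2) with 1069 genes left out, among them the called genes, and classes were named from listed markers. The score limits for naming, and the rules that left clusters unnamed, were set after the clusters were seen. Scrublet's own thresholds marked 0.0325% to 1.85% of cells per embryo, too few to be used, so no doublets were removed in the reported values and the highest scores were removed as an alternative.

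Genes were named by rule: the NuRD subunits; the 12 largest rises and falls among called genes with at least 10 CPM and no overlap between groups, and 5 each below that level; up to 4 members per gene list by adjusted p; genes the study names; and 5 genes in each direction of the interaction. List members named by this rule also had to be called without overlap between groups. Other genes were chosen after their values were seen. Sex-specific genes were left out of these choices. The comparison, its members and the gene lists were chosen with earlier results of these data known. Alternatives were DESeq2 1.42.0, its size factors, testing without filterByExpr, blocking by replicate number, other embryos and other cell filters, and each embryo left out. A further alternative gave each cell equal weight and was tested by limma 3.58.1 on log values. Removing the cluster mostly from Het replicate 3, and recounting the lists without each embryo, were chosen after seeing the data. Gene positions come from GENCODE M21 (GRCm38) and promoters from RefSeq. Some genes are not reported here.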

Additional observations from a re-analysis of the deposited data

Results flagged for a closer look

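The change between KO and Het differed between excitatory and inhibitory neuron-like cells for 509 genes in edgeR's interaction test, and the 5 genes with the smallest adjusted p in each direction are listed here as the inhibitory minus the excitatory log2 fold change. The differences were -1.32 for Tmem176b, -0.90 for Gria1, -0.85 for Tmem178, -1.05 for Cdh13 and -0.64 for Cadps, a regulator of vesicle priming. They were 1.63 for Trpc4, a cation channel, 1.14 for Tenm3, 0.91 for Arid5b, 0.69 for Cpe, a peptide-processing enzyme, and 0.94 for Slitrk1. Trpc4 measured 10.9, 10.1 and 10.5 CPM in Het and 4.07, 3.84 and 3.74 in KO excitatory neuron-like cells, and 43.9, 39.8 and 36.2 against 52.9, 38.6 and 45.7 in inhibitory ones. Cadps measured 88.0, 86.5 and 89.6 against 133, 124 and 144 in excitatory and 145, 138 and 129.5 against 137, 128 and 139 in inhibitory neuron-like cells. No group held 4 or more embryos, so single outlying embryos were not searched for by a formal rule.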

How the results depend on the processing

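The count of 1054 genes called over all cells was 277 when each cell was given equal weight and lay between 810 and 1203 under DESeq2, its size factors, no filter on low counts, all 10 embryos, Het replicate 4 added and the other cell filters. The equal-weight setting also replaced the edgeR test by limma on log values with a constant added, which shrinks the fold changes of low genes. Its count therefore does not isolate the weight of cells. Leaving out 1 embryo gave 569 to 1268 calls over all cells, 1128 to 1397 in excitatory, 38 to 137 in inhibitory and 378 to 477 in progenitor cells, and 285 to 514 for the interaction. The inhibitory count of 126 was 211 with DESeq2 and 448 with no filter, the progenitor count of 584 was 980 with no filter, and the interaction count of 509 was 1101 with no filter. With each cell given equal weight, and so under that other test, 1 of 12 GABA-A and 3 of 17 glutamate receptor genes were lower. The causes were not tested. With the replicate number as a block, 1164 genes were called over all cells, 1402 in excitatory, 188 in inhibitory and 667 in progenitor cells. Same-numbered embryos correlated at 0.086, 0.036 and 0.072, and not every embryo correlated best with its own number, so the numbers were not taken as pairs.

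Named genes kept their direction and their side of the threshold in 2572 of 2907 cases, lost the call in 311, gained it in 14 and reversed in 10. With erythroid, vascular, microglia and unnamed clusters removed, the log2 fold change was -0.0076 for Mta3, 0.29 for Kcnj8 and 0.088 for Ndufa4l2. Leaving out each embryo gave log2 fold changes of -0.010 to 0.050 for Mta3, -0.027 to 0.0040 for Rbbp4 and -0.019 to 0.053 for Cdk2ap2, none of them called. Leaving out each embryo gave a difference in share (KO minus Het, percentage points) of -2.07 to 1.499 for inhibitory neuron-like, -0.0831 to 0.0870 for oligodendrocyte precursor-like and -0.0578 to 0.0248 for mural or meningeal-like cells. The difference for oligodendrocyte precursor-like cells was -0.160 with at least 3000 UMIs, -0.0741 with at most 5.0% mitochondrial UMIs and -0.197 with the resolution doubled. At the main resolution this class was a cluster of 389 cells that also scored for radial glia (2.42, against 4.89 for its own name). With the resolution doubled only 136 cells kept the name, and a radial glia-like cluster of 273 cells held a median of 1811 UMIs. The share is therefore not that of oligodendrocyte precursors alone. For mural or meningeal-like cells it was 0.0077 with at least 3000 UMIs and 0.181 with the cells of the highest doublet scores removed, in place of -0.022. Cutting the highest scores thus changed the share of these cells. The part of this in the lost calls of Kcnj8, Pdgfrb and Ndufa4l2 under that setting was not tested. In simulated counts 22 of 67 genes changed by 0.25 on the log2 scale passed the adjusted p. Far fewer genes were changed there than were called in the data, which makes the limit stricter. Some genes passed the adjusted p in the data at smaller changes (Mbd2 at 0.20, Chd4 at 0.22).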

Other observations

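Some gene groups outside the comparisons above also held called genes over all cells, where 2.92% of all genes were called higher and 3.22% lower. The counts for imprinted genes called lower, other chromatin regulators and oxidative phosphorylation genes were near or below these shares. Of 29 Wnt pathway genes 4 were higher and 4 lower: Rspo2, which amplifies Wnt signals, measured 4.28, 4.15 and 3.76 CPM in Het and 1.59, 1.203 and 1.39 in KO (log2 fold change -1.54, SE 0.13, adjusted p = 0.000224), while its relative Rspo3 measured 81.8, 69.8 and 61.2 against 114, 103 and 109.7 (log2 fold change 0.62, SE 0.090, adjusted p = 0.00384). Over all cells the pair moved in opposite directions without overlap between the groups. In pallial progenitor-like cells Rspo3 was lower, at 16.6, 20.3 and 9.22 against 5.68, 7.63 and 8.26 (log2 fold change -1.10, SE 0.23, adjusted p = 0.0123). Of 24 Notch pathway genes 3 were higher and 0 lower, among them the ligand gene Dll1 at 10.9, 10.8 and 9.66 against 13.0, 13.9 and 15.0 (log2 fold change 0.42, SE 0.069, adjusted p = 0.00705). Of 39 imprinted genes 3 were higher (Peg10, Grb10 and Plagl1) and 1 lower (Kcnk9), and Peg10 measured 7.97, 8.59 and 9.37 against 11.1, 13.1 and 13.6 (log2 fold change 0.55, SE 0.087, adjusted p = 0.006). Plagl1 lost its call without Het replicate 2, Het replicate 3, KO replicate 1 or KO replicate 3. Of 16 histone variant and linker histone genes 3 were higher and 0 lower, led by the linker histone gene H1f0 at 187, 161 and 176 against 225, 229 and 247 (log2 fold change 0.42, SE 0.058, adjusted p = 0.00306).

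Among other groups, 1 of 29 interneuron genes was higher (Sox6, 0.41), a share near that of all genes, and 4 were lower. The lower ones were Npy, the transcription factor gene Npas1 (-0.89), Cxcr4 and Calb2, and Cxcr4 and Calb2 were also counted above among Cajal-Retzius genes. Npy was also lower within excitatory neuron-like cells. Of 34 other chromatin regulators 1 was higher, the BAF subunit gene Dpf3 at 8.71, 10.1 and 8.02 against 14.7, 12.3 and 12.6 (log2 fold change 0.56, SE 0.095, adjusted p = 0.00775), and 0 lower. Of 82 cytosolic ribosomal protein genes and 13 mitochondrially encoded genes 0 were called by edgeR or DESeq2, and 0 of either had an unadjusted p under 0.05. Of 81 oxidative phosphorylation genes 1 was higher (Cox6b2, 0.63) and 1 lower (Ndufa4l2), and Cox6b2 lost its call without Het replicate 1, 2 or 3 or without KO replicate 1 or 3. Ndufa4l2 (-0.52) lost its call without Het replicate 2, Het replicate 3 or KO replicate 3, and with the cells of the highest doublet scores removed its log2 fold change was -0.072 (adjusted p = 0.884).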
